A study of Mus musculus with 6 samples.

Results

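The genes described here are 44 cell cycle genes, 20 that act in DNA replication and the S phase and 24 that act in mitosis. They were chosen by name from the gene table of sorted optic nerve microglia, and 42 of the 44 have values there, 18 replication and 24 mitotic genes among the 37447 genes of the table. The expression of Cdt1 and Gins2 was not analysed here. Microglia, the resident macrophages of nervous tissue, came from 3-month-old C57BL/6 mice and were sequenced as 6 libraries. Both groups were Nf1 flox/mut, so the controls too carried 1 mutant and 1 floxed allele of the tumour suppressor gene Nf1. The control group, FM, had no Cre transgene (2 libraries, FM 1 male and FM 2 female). The FMC group carried GFAP-Cre in addition (4 libraries, FMC 1 and FMC 4 female, FMC 2 and FMC 3 male). The GFAP promoter drives Cre in astroglial cells, so the recombination is not aimed at the sequenced microglia. The labels call the libraries biological replicates and do not say whether animals were pooled.

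A cell that divides first copies its DNA and then separates the copies. In the first step the MCM helicase is loaded on origins, the sliding clamp PCNA holds the polymerases on DNA, and enzymes such as ribonucleotide reductase supply nucleotides; transcription of many of these genes is driven by E2F factors. In the second step cyclin B with CDK1, the Aurora and Polo kinases, kinetochore proteins and spindle motors move the chromosomes, and many of their genes are repressed in resting cells by the DREAM complex, which binds a short promoter element called CHR, often beside CCAAT boxes. Adult microglia renew slowly, so most of them are at rest at any time.

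Promoters show this division of the members most directly. RefSeq promoter windows (build GRCm38.p6, 250 bases before to 50 after each start) were matched by symbol for 17 replication genes, Cdt1 included, and 20 mitotic genes. A CHR (TTTGAA or TTCGAA, either strand) was found in 17 of 21 mitotic windows (81%), in 3 of 22 replication windows (13.6%) and in 19.2% of all 32851 windows. An E2F motif (TTTCCCGC, TTTCGCGC, TTTGCCGC or TTTGGCGC, either strand) was found in 8 of 22 replication windows (36.4%), in 1 of 21 mitotic windows, that of Cdk1, and in 2.26% of all windows. CHR and CCAAT occurred together in 76.2% of mitotic windows, 9.09% of replication windows and 7.52% of all. No motif searched contains another, and a match is a description of the sequence, not of binding. The promoters of the most abundant members with a motif of their class follow, from 250 bases before to 30 after the start, 5′ to 3′ on the strand of the gene, with that motif in capitals. All 4 lie on the minus strand, Mcm3 at chr1:20820283-20820562, Mcm7 at chr5:138171854-138172133, Top2a at chr11:99024160-99024439 and Mki67 at chr7:135716350-135716629.
Mcm3: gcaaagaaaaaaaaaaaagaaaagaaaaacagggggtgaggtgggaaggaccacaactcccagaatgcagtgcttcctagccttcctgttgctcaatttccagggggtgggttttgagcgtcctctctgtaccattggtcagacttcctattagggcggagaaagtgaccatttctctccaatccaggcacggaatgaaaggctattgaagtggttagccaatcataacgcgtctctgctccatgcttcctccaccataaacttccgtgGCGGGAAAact
Mcm7: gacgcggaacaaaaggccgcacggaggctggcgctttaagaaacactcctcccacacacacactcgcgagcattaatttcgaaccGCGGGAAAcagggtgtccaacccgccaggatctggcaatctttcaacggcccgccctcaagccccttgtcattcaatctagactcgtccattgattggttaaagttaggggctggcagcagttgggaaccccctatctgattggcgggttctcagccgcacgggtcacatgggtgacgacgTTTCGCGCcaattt
Top2a: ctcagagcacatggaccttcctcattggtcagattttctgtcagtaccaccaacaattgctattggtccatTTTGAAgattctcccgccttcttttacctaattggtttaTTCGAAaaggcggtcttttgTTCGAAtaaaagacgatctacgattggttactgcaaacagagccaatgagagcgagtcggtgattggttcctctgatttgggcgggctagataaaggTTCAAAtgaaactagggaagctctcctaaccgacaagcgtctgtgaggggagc
Mki67: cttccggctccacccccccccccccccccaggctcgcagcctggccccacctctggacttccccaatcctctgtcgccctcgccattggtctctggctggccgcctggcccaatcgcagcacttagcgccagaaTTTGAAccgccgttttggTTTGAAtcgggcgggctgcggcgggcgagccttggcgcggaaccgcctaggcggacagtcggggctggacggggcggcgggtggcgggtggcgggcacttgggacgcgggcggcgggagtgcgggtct

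The table gives FPKM (fragments of a transcript scaled by its length and by the mapped fragments of the library), and its values were tested as log2(FPKM + 1). Between 13333 and 15511 genes reached 1 FPKM in a library. Relative sequencing depth, read from the steps of low values, was 1.18 (FM 1), 1.36 (FMC 1), 1.95 (FMC 3) and 2.11 (FMC 4) times that of FMC 2. For FM 2 the steps gave 3.39. The next most frequent ratio set apart from the first was 0.59 (FM 1), 1.69 (FM 2), 0.678 (FMC 1), 1 (FMC 3) and 1.09 (FMC 4). Such a second ratio exists by construction, and it was below the first in every case. The relative depths are taken as uncertain down to these second values. All 12 microglial markers examined, among them P2ry12, Tmem119 and Csf1r, were above 1 FPKM in every library, at 5.23 FPKM or more. Values of other cell types are given beside the results they touch. In bulk RNA, fewer cycling cells and less of a transcript per cell cannot be told apart.

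Replication genes were present in all libraries. Of the 18, 10 reached 1 FPKM in all 6 libraries (55.6%), as did 8 of the 19 mitotic genes that entered the tests (42.1%) and 47.4% of all genes tested. A value of 0 in at least 1 library was listed for 0 of the 18 replication genes, 2 of the 19 tested mitotic genes (Cdc20 and Ndc80, 10.5%) and 21.3% of all genes tested. Aurka and Birc5, mitotic genes too low to be tested, were also listed at 0 in 1 library each. Between 14 and 17 replication genes and between 12 and 16 mitotic genes reached 1 FPKM in a given library.

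**Figure D1:**
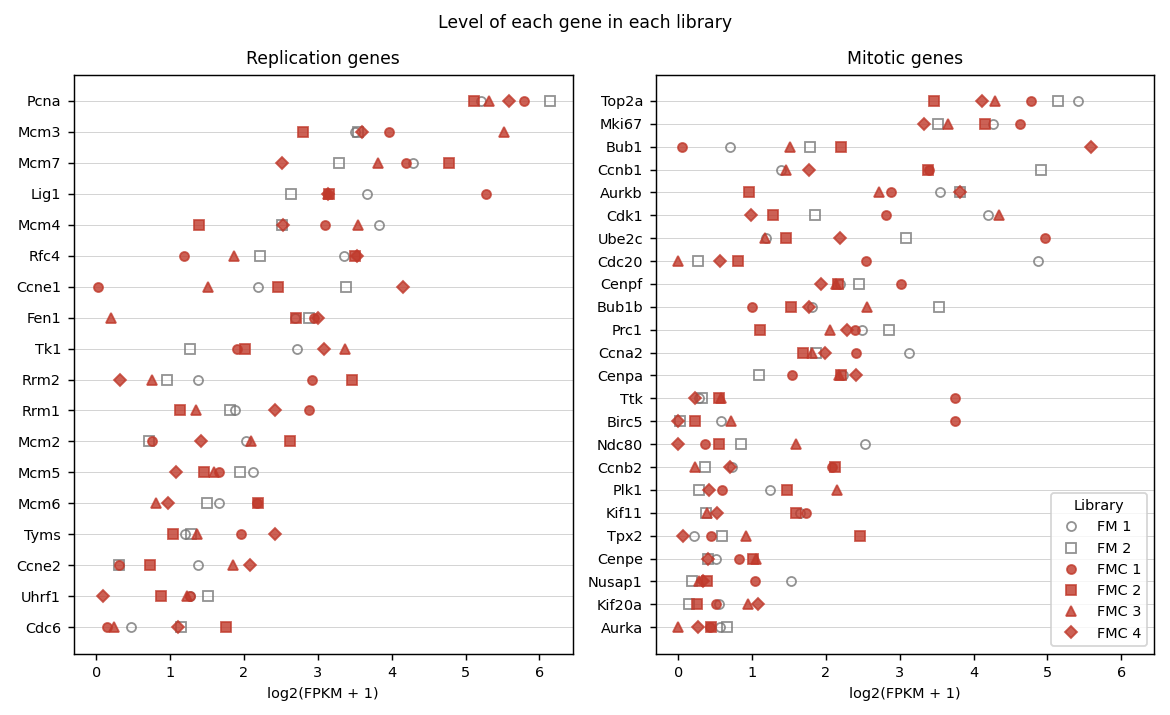
Level of each of the 42 genes, as log2(FPKM + 1), in each library; open grey symbols are FM libraries and filled red symbols FMC libraries, and genes are ordered by mean FPKM within each class. Pcna, Top2a and Mki67 are high in all 6 libraries, while Bub1, Ttk, Birc5 and Cdc20 each have 1 library far to the right of the rest.

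Pcna, the clamp on which DNA polymerases slide, was the most abundant member. FM 1 had 36.2 FPKM and FM 2 had 69.6 FPKM, while FMC 1 to FMC 4 had 54.6, 33.5, 39.0 and 47.2 FPKM. Libraries are listed in this order of number throughout. Its groups overlapped, and its lowest and highest libraries lay 1.03 apart on the log2 scale, against a median of 2.22 over all genes tested. The log2 difference FMC minus FM was -0.22 ± 0.48 (SE, limma adjusted p = 0.999). Processed copies of Pcna are listed as genes of their own, and how reads shared with them were divided was not stated.

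The MCM genes encode the 6 subunits of the replicative helicase, and the most abundant of them peaked in different libraries. Mcm3 had 10.4 and 10.7 FPKM in the FM libraries, against 14.6, 5.97, 44.8 and 11.1 FPKM in the FMC libraries, with FMC 3 well above the rest. Mcm7 had 18.6 and 8.71 FPKM in the FM libraries, against 17.3, 26.5, 13.1 and 4.73 FPKM in the FMC libraries, with FMC 2 highest and FMC 4 lowest. Mcm4 had 13.2 and 4.71 FPKM in the FM libraries, against 7.59, 1.63, 10.6 and 4.76 FPKM in the FMC libraries, so the library with the most Mcm7 had the least Mcm4. Their log2 differences were 0.44 ± 0.77, 0.04 ± 0.73 and -0.53 ± 0.83 (SE), each with a limma adjusted p of 0.999. Mcm5 was lower and less variable, with 3.35 and 2.86 FPKM in the FM libraries, against 2.17, 1.76, 2.02 and 1.12 FPKM in the FMC libraries. All 4 FMC libraries lay below both FM libraries in Mcm5 (log2 difference -0.58 ± 0.69 SE, limma adjusted p = 0.998). Mcm2 ranged from 0.631 FPKM (FM 2) to 5.18 FPKM (FMC 2), and Mcm6 from 0.758 FPKM (FMC 3) to 3.58 FPKM (FMC 2). Cdc6, which loads the helicase on origins, stayed between 0.106 and 2.39 FPKM and reached 1 FPKM in 3 libraries.

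Lig1 and Fen1, genes of lagging strand synthesis, each had 1 library that differed most. Lig1, the ligase that joins Okazaki fragments, had 11.7 and 5.20 FPKM in the FM libraries, against 37.7, 7.86, 7.83 and 7.82 FPKM in the FMC libraries. The log2 difference of 0.53 ± 0.79 (SE, limma adjusted p = 0.999) became -0.0031 without FMC 1. Fen1, the flap nuclease of the same step, was between 5.47 and 7.02 FPKM in 5 libraries and at 0.142 FPKM in FMC 3. Rfc4, a subunit of the loader of PCNA, had 9.25 and 3.65 FPKM in the FM libraries, against 1.29, 10.3, 2.64 and 10.5 FPKM in the FMC libraries, and the groups overlapped.

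All 4 genes of nucleotide supply had a positive difference, and none was called. Rrm2, the regulated subunit of ribonucleotide reductase, had 1.60 and 0.932 FPKM in the FM libraries, against 6.55, 10.0, 0.690 and 0.243 FPKM in the FMC libraries. FMC 1 and FMC 2 lay above both FM libraries and FMC 3 and FMC 4 below them (log2 difference 0.70 ± 1.04 SE, limma adjusted p = 0.999). Tk1, thymidine kinase, had 5.60 and 1.41 FPKM in the FM libraries, against 2.75, 3.05, 9.31 and 7.44 FPKM in the FMC libraries, where FMC 3 and FMC 4 were the high ones (0.60 ± 0.83 SE, limma adjusted p = 0.999). Rrm1, the other reductase subunit, ranged from 1.19 FPKM (FMC 2) to 6.38 FPKM (FMC 1), and thymidylate synthase, Tyms, from 1.05 FPKM (FMC 2) to 4.33 FPKM (FMC 4).

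Ccne1, a cyclin E gene whose product partners CDK2 at entry into the S phase, had the widest log2 range of the replication genes. It had 3.55 and 9.45 FPKM in the FM libraries, against 0.0172, 4.48, 1.85 and 16.7 FPKM in the FMC libraries. The lowest and the highest value were both in FMC libraries (log2 difference -0.75 ± 1.14 SE, limma adjusted p = 0.999). Ccne2 ranged from 0.235 FPKM (FMC 1) to 3.22 FPKM (FMC 4). Uhrf1, which guides maintenance methylation on new DNA, had 1.41 and 1.84 FPKM in the FM libraries, against 1.41, 0.834, 1.35 and 0.0602 FPKM in the FMC libraries. Its FMC values all lay below both FM values, by a margin that FMC 1 nearly closed (-0.52 ± 0.61 SE, limma adjusted p = 0.998).

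Top2a, the topoisomerase that untangles sister chromosomes (ENSMUSG00000020914, chromosome 11 from 98854257 to 98885503 in mm9), was the most abundant mitotic gene. It had 41.8 and 34.4 FPKM in the FM libraries, against 26.3, 10.1, 18.5 and 16.3 FPKM in the FMC libraries, so every FMC library lay below both FM libraries. The means were 38.1 ± 5.2 FPKM (SD, n = 2) and 17.8 ± 6.7 FPKM (SD, n = 4). The log2 difference of -1.12 ± 0.53 (SE) had a 95% interval from -2.33 to 0.08 and did not pass across all genes (limma adjusted p = 0.974). It lay between -1.33 and -0.89 with any 1 library left out. It was -1.95 for FMC 2 against FM 1 and -0.86 for FMC 3 against FM 2, the pairs whose titles carry dates 1 day apart.

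Erythroid markers moved with Top2a between the groups. The 7 erythroid markers summed to 128 and 159 FPKM in the FM libraries and to between 23.6 and 32.7 FPKM in FMC, and 5 of the 6 tested lay below both FM libraries in all FMC libraries, with 0 called by limma and 5 at an unadjusted p under 0.05. Over all genes tested, 8.22% lay below both FM libraries and limma gave 5.34% an unadjusted p under 0.05. The remaining tested erythroid marker was higher in FMC. Values of 0 were listed for 1 of the 7 markers in FM 2 and for 2 in FMC 2, among the latter Klf1, an erythroid transcription factor gene. The part of erythroid RNA in the Top2a values was not tested.

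Mki67, the gene of the proliferation marker Ki-67, did not share the pattern of Top2a. It had 18.1 and 10.5 FPKM in the FM libraries, against 23.8, 16.8, 11.5 and 9.03 FPKM in the FMC libraries, with a log2 difference of 0.05 ± 0.60 (SE, 95% interval -1.30 to 1.40, limma adjusted p = 0.999). The groups overlapped throughout, and leaving out FM 2, FMC 1 or FMC 2 turned the sign (-0.32, -0.18 and -0.019).

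The cyclins and the kinase of mitotic entry peaked in different libraries. Cdk1 had 17.4 and 2.59 FPKM in the FM libraries, against 6.00, 1.44, 19.3 and 0.973 FPKM in the FMC libraries, high in FM 1 and FMC 3 (log2 difference -0.67 ± 1.13 SE, limma adjusted p = 0.999). Ccnb1, cyclin B1, its activating partner, had 1.63 and 29.3 FPKM in the FM libraries, against 9.54, 9.46, 1.75 and 2.43 FPKM in the FMC libraries. FM 1 and FMC 3, the libraries with the most Cdk1, were the 2 with the least Ccnb1. The log2 difference of Ccnb1 was -0.65 ± 1.10 (SE, limma adjusted p = 0.999) and 1.11 without FM 2. Ccnb2, cyclin B2, had 0.660 and 0.290 FPKM in the FM libraries, against 3.25, 3.38, 0.166 and 0.620 FPKM in the FMC libraries (0.73 ± 0.74 SE, limma adjusted p = 0.994). Cyclin A2, Ccna2, was steadier, from 2.23 FPKM (FMC 2) to 7.72 FPKM (FM 1).

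Bub1 had the widest log2 range of all members. Bub1, a kinase of the spindle checkpoint, had 0.631 and 2.44 FPKM in the FM libraries, against 0.0358, 3.60, 1.86 and 47.4 FPKM in the FMC libraries. FMC 4 thus held 84.7% of the Bub1 signal summed over the 6 libraries, and the log2 difference of 1.10 ± 1.39 (SE, limma adjusted p = 0.999) was 0.012 without it. Bub1b, which encodes the checkpoint protein BubR1, peaked elsewhere, with 2.52 and 10.6 FPKM in the FM libraries, against 0.990, 1.89, 4.89 and 2.42 FPKM in the FMC libraries (-0.96 ± 0.85 SE, limma adjusted p = 0.993). Aurkb, the kinase of the chromosomal passenger complex, had 10.7 and 13.1 FPKM in the FM libraries, against 6.40, 0.944, 5.58 and 13.1 FPKM in the FMC libraries, with 3 FMC libraries below both FM libraries and FMC 4 level with FM 2. Its log2 difference was -1.09 ± 0.86 (SE, limma adjusted p = 0.993). Aurka, the kinase of the spindle poles, did not exceed 0.582 FPKM. Plk1 ranged from 0.215 FPKM (FM 2) to 3.45 FPKM (FMC 3).

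Ttk, Birc5 and Ube2c were highest in FMC 1. Ttk, the kinase Mps1 of the spindle checkpoint, stood at 12.4 FPKM in FMC 1 and between 0.168 and 0.499 FPKM in the other 5 libraries. Birc5, survivin, the passenger partner of Aurora B, stood at 12.4 FPKM in FMC 1, was listed at 0 in FMC 4 and did not exceed 0.645 FPKM in the other 4. Ube2c, the ubiquitin-conjugating enzyme of the anaphase-promoting complex, stood at 30.4 FPKM in FMC 1, 7.49 in FM 2 and between 1.26 and 3.56 FPKM elsewhere. Aurkb, the kinase partner of survivin, was at 6.40 FPKM there, within the range of the other libraries.

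The remaining genes of anaphase, kinetochore and spindle followed no common library. Cdc20, the activator of the anaphase-promoting complex, had 28.4 and 0.203 FPKM in the FM libraries, against 4.84, 0.760, 0 and 0.487 FPKM in the FMC libraries. FM 1 alone held 81.9% of its sum (log2 difference -1.59 ± 1.28 SE, limma adjusted p = 0.993), although Ube2c, of the same complex, was at 1.28 FPKM in FM 1. Ndc80, a microtubule-binding subunit of the kinetochore, had 4.79 and 0.796 FPKM in the FM libraries, against 0.288, 0.471, 2.03 and 0 FPKM in the FMC libraries (-1.06 ± 0.72 SE, limma adjusted p = 0.993). Cenpa, the histone variant of centromeres, was between 1.14 FPKM (FM 2) and 4.28 FPKM (FMC 4), and Cenpf between 2.82 FPKM (FMC 4) and 7.11 FPKM (FMC 1). Prc1, which bundles midzone microtubules, had all FMC libraries (1.16 to 4.23 FPKM) below both FM libraries (4.63 and 6.21 FPKM). Tpx2, an activator of Aurora A, stood at 4.49 FPKM in FMC 2 and below 1 FPKM elsewhere. Nusap1, Kif11, Kif20a and Cenpe did not exceed 2.33 FPKM in any library.

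**Figure D2:**
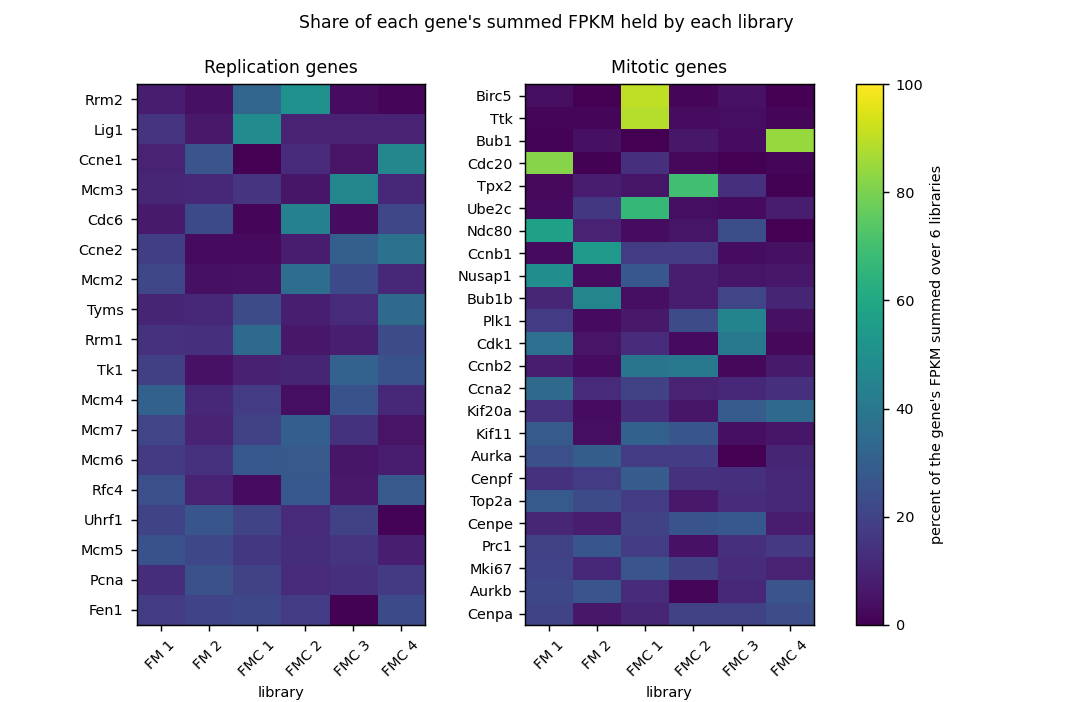
Share of each gene's FPKM, summed over the 6 libraries, that each library holds, in percent (colour); genes are ordered by the share of their highest library. Birc5, Ttk, Bub1 and Cdc20 have over 80% in 1 library (90.4, 88.7, 84.7 and 81.9%), in 3 different libraries, while Pcna and Cenpa are spread over all 6.

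Dominance by 1 library was counted over all members. Among tested genes, the highest library held over 50% of the summed FPKM in 5 of 19 mitotic genes (26.3%), in 1 of 18 replication genes, Rrm2 (5.56%), and in 24.96% of all. The mitotic share is close to that of all genes. The 5 mitotic genes were Bub1, Cdc20, Ube2c, Ndc80 and Ccnb1, and the untested Birc5, Ttk and Tpx2 also passed 50%; these were named after their values were seen. The highest library was FM 1 for 5 mitotic genes, FM 2 for 5, FMC 1 for 6, FMC 2 for 2, FMC 3 for 3 and FMC 4 for 3. No FMC library other than FMC 1 therefore exceeded either FM library in this count.

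Across genotype, 37 of the 42 genes had at least 1 FPKM in at least 2 libraries and were tested, all 18 replication and 19 mitotic genes. Aurka, Kif20a, Ttk, Birc5 and Tpx2 fell under that filter. At an adjusted p under 0.05 limma called 0 of the 37, where it called 0.0275% of the 18208 genes tested. At an unadjusted p under 0.05 it gave 0 of the 37, against 5.34% of all genes. Values in FMC exceeded both FM values in every library for 0 of the 37, against 4.34% of all genes, and fell short of both for 4 of the 37 (Mcm5, Uhrf1, Prc1 and Top2a), against 8.22% of all genes.

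**Figure D3:**
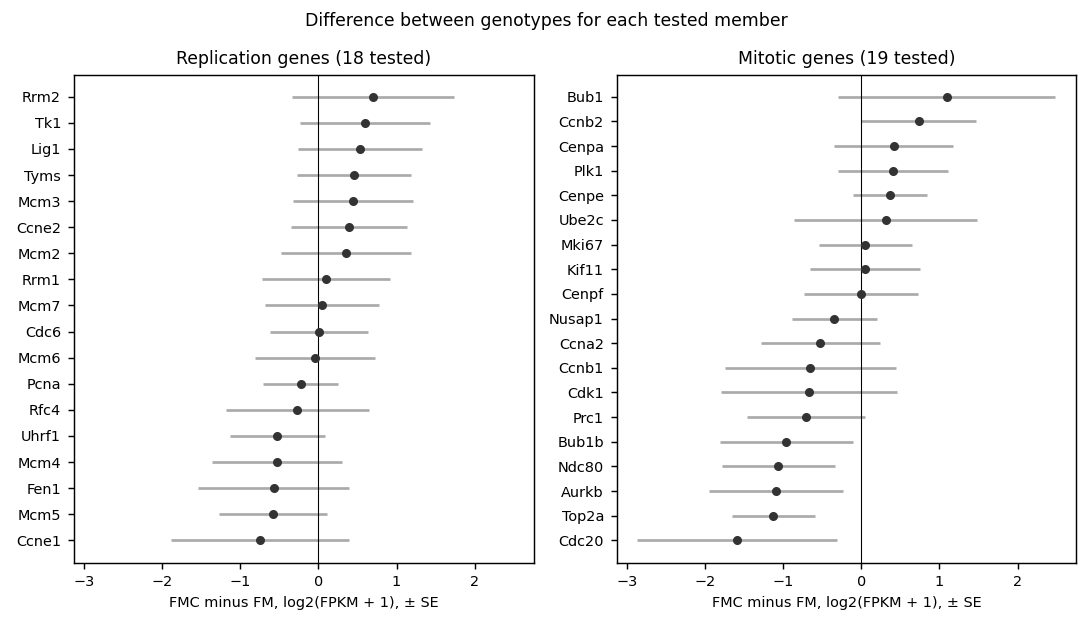
Difference FMC minus FM on the log2(FPKM + 1) scale for the 18 replication and 19 mitotic genes tested; points are limma estimates and bars their SE. Differences run from -0.75 (Ccne1) to 0.70 (Rrm2) among replication genes and from -1.59 (Cdc20) to 1.10 (Bub1) among mitotic genes, on both sides of 0.

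Replication genes had a median log2 difference of 0.02, with 10 higher and 8 lower in FMC, and mitotic genes one of -0.35, with 8 higher and 11 lower. The median over all genes tested was -0.12, and 43.5% of them were higher in FMC. Scaling moved that median to -0.0058 (median ratio) and 0.035 (quantile), so both class medians are to be read against it. Under those scalings the replication median was 0.19 and 0.28 and the mitotic median -0.31 and -0.14. Without FM 1 the mitotic median was 0.26 over the mitotic genes still tested.

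By library, the mean of log2(FPKM + 1) was lower over mitotic than over replication genes everywhere, least so in FMC 1. The median FPKM of mitotic genes was above that of replication genes in FMC 1 (3.74 against 3.21) and below it elsewhere. The mean of log2(FPKM + 1) over the 18 replication genes was 2.49 and 2.17 in FM 1 and FM 2 and 2.36, 2.40, 2.20 and 2.39 in FMC 1 to FMC 4. Over the 24 mitotic genes, the untested ones included, it was 1.99 and 1.68 in FM and 2.16, 1.56, 1.62 and 1.53 in FMC. The mitotic mean minus the replication mean was -0.50 and -0.49 in FM and -0.20, -0.84, -0.58 and -0.86 in FMC. As group means the replication genes were at 2.33 ± 0.23 (SD, n = 2) in FM and 2.34 ± 0.09 (SD, n = 4) in FMC. The mitotic genes were at 1.84 ± 0.22 (SD, n = 2) and 1.72 ± 0.30 (SD, n = 4), a difference of -0.12 that was -0.27 without FMC 1. These means over chosen members are a description and carry no test. For the pairs with titles dated 1 day apart, FMC 2 minus FM 1 gave -0.09 (replication) and -0.43 (mitosis), and FMC 3 minus FM 2 gave 0.03 and -0.07. FMC 3 and FM 2 also differ in sex.

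**Figure D4:**
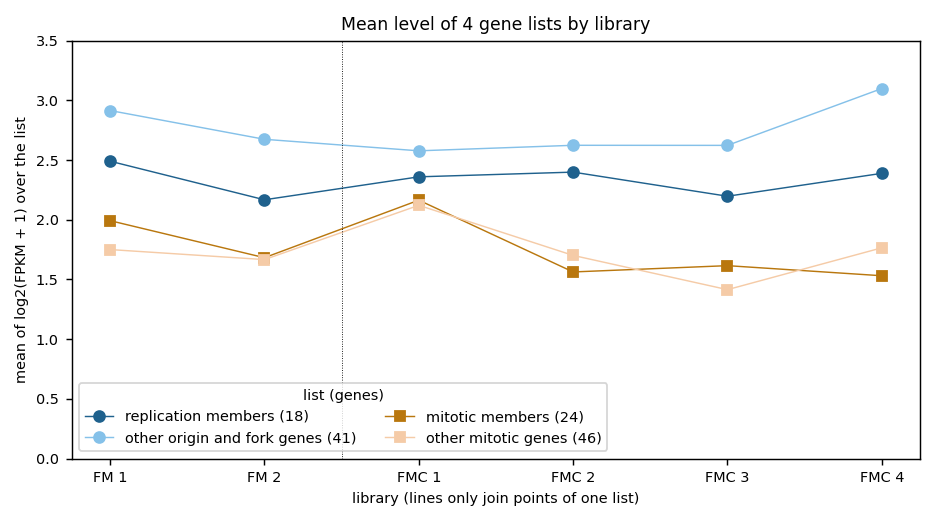
Mean of log2(FPKM + 1) by library for the 18 replication and 24 mitotic members and for 2 lists of other genes, 41 of origins and forks and 46 of mitosis; the dotted line separates FM from FMC libraries. Both mitotic lists are highest in FMC 1 (2.16 and 2.12), and the replication members stay between 2.17 and 2.49.

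Mitotic genes outside the 44 were also highest in FMC 1 on average, though as many of them peaked in FMC 2. Of the 46, 12 peaked in each of these libraries, 9 in FMC 4, 6 in FM 1, 6 in FM 2 and 1 in FMC 3. The mean of 46 such genes was 2.12 in FMC 1 and between 1.41 and 1.77 in the other 5 libraries, and 35 of them reached 1 FPKM there, against 24 to 31 elsewhere. Other origin and fork genes were not: the mean of 41 was 2.58 in FMC 1, the lowest of the 6 libraries (2.58 to 3.10).

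Lymphocyte and myeloid markers were highest in FMC 1 too. The 12 T cell markers summed to 139 FPKM in FMC 1, against 24.9 and 31.2 FPKM in FM and 29.9 to 37.7 FPKM in the other FMC libraries, and 8 of the 12 peaked in FMC 1. The 7 B cell markers summed to 38.6 and 118 FPKM in FM and to between 23.3 and 130 FPKM in FMC, with 5 of the 7 highest in FMC 1. The 8 monocyte and neutrophil markers summed to 72.0 and 334 FPKM in FM and to between 90.3 and 405 FPKM in FMC, 405 in FMC 1, with 3 of the 8 highest there. Elane was listed at 0 in FM 1, FMC 1 and FMC 2. Cd3g and Blk were listed at 0 in FMC 2, and all T and B cell markers were above 0 in FMC 1. The part of such cells in the mitotic values of FMC 1 was not tested.

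In the wider pathway 0 genes were called in any of 5 further lists. Of 38 tested origin and fork genes 19 were higher and 19 lower in FMC (median 0.01), and at an unadjusted p under 0.05 limma gave 0. Dut, which removes dUTP, had 8.56 and 7.89 FPKM in the FM libraries, against 0.143, 0.593, 6.16 and 1.12 FPKM in the FMC libraries, below both FM libraries throughout (limma adjusted p = 0.955). Orc2, a subunit of the origin recognition complex, had 5.53 and 3.72 FPKM in the FM libraries, against 13.3, 24.97, 5.74 and 20.7 FPKM in the FMC libraries, above both throughout (limma adjusted p = 0.982). Among the 38 tested, 3 genes (Orc2, Orc3 and Pola1) had each FMC value higher than either FM value, against 4.34% of all genes. Only Dut, 1 of the 38, had each FMC value lower, against 8.22% of all genes. Orc3 and Pola1 were named after their values were seen.

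Of 40 tested mitotic genes outside the members 24 were higher and 16 lower (median 0.17), with 1 at an unadjusted p under 0.05. That gene, Ckap2l, which encodes a spindle protein, had 3.18 and 5.25 FPKM in the FM libraries, against 0.617, 1.73, 0.0912 and 0.0852 FPKM in the FMC libraries (log2 difference -1.76 ± 0.67 SE, limma adjusted p = 0.797). Tacc3, which stabilises spindle microtubules, had 43.9 and 41.7 FPKM in the FM libraries, against 1.64, 12.8, 14.3 and 32.4 FPKM in the FMC libraries (-1.90 ± 0.91 SE, limma adjusted p = 0.979). All FMC libraries lay below both FM libraries in these 2 genes and in Kif15, 3 of the 40 tested, against 8.22% of all genes. They lay above both in Ncapg, Melk, Pbk and Anln, 4 of the 40, against 4.34% of all genes. Kif15 and the last 4 were named after their values were seen.

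Of 10 G1 cyclins and kinases 4 were higher and 6 lower (median -0.14), and 0 had an unadjusted p under 0.05. Ccnh, the cyclin of the CDK-activating kinase, had 38.9 and 224 FPKM in the FM libraries, against 18.3, 52.6, 26.6 and 104 FPKM in the FMC libraries. Cdk6, a cyclin D kinase, had 3.61 and 2.56 FPKM in the FM libraries, against 5.93, 3.46, 7.97 and 11.4 FPKM in the FMC libraries. Both genes overlapped between the groups.

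Of 16 tested E2F and pocket protein genes 8 were higher and 8 lower (median 0.01), and 0 had an unadjusted p under 0.05. E2f8 and E2f7, the atypical E2F repressors, differed in direction. E2f8 had 2.30 and 0.461 FPKM in the FM libraries, against 17.9, 3.45, 19.4 and 2.97 FPKM in the FMC libraries, above both FM libraries throughout (2.05 ± 0.96 SE, limma adjusted p = 0.969). E2f7 had 2.91 and 9.32 FPKM in the FM libraries, against 4.25, 0.469, 2.88 and 0.333 FPKM in the FMC libraries (-1.34 ± 0.90 SE, limma adjusted p = 0.993).

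The list of CDK inhibitors also held Trp53 and Mdm2. Of its 5 tested genes, 3 were higher (Cdkn1b, Trp53 and Mdm2) and 2 lower (Cdkn1a and Cdkn2c). The median log2 difference of 0.23 was that of Mdm2, and 0 had an unadjusted p under 0.05. Cdkn2c, the inhibitor p18 of cyclin D kinases, had 5.94 and 9.42 FPKM in the FM libraries, against 4.86, 0.955, 0.502 and 3.98 FPKM in the FMC libraries, below both FM libraries throughout. Trp53, the gene of p53, had 39.8 and 89.4 FPKM in the FM libraries, against 148, 68.2, 138 and 80.1 FPKM in the FMC libraries, with overlapping groups.

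Sex was compared with genotype kept in the fit, 3 male against 3 female libraries. Limma called 0 of the 37 members and 0% of all genes, and at an unadjusted p under 0.05 it gave 1 of the 37, against 7.44% of all genes. That gene was Ube2c, at 1.28, 1.75 and 1.26 FPKM in males and at 7.49, 30.4 and 3.56 FPKM in females (male minus female -2.14 ± 0.89 SE, limma adjusted p = 0.655). Plk1, the Polo kinase, stood at 1.36, 1.79 and 3.45 FPKM in males and at 0.215, 0.511 and 0.337 FPKM in females, also without overlap (1.19 ± 0.56 SE, limma adjusted p = 0.692). Ndc80 was at 4.79, 0.471 and 2.03 FPKM in males and at 0.796, 0.288 and 0 FPKM in females (1.16 ± 0.59 SE, limma adjusted p = 0.722). Ube2c and Plk1, both mitotic, thus lay on opposite sides. The sexes also did not overlap in Pcna and Fen1, higher in females, or in Mcm2, higher in males, named after their values were seen. The share of all genes without overlap between the sexes is not given here, so these are not read as an excess. Markers of other cells also differed by sex in value. Of the tested B cell markers 5 of 6 were higher in females, with sums of 23.3 to 44.6 FPKM in males and 54.3 to 130 FPKM in females, and Cd79b had the smallest p (male minus female -2.45, limma adjusted p = 0.385). Of the tested T cell markers 7 of 11 were higher in females, with sums of 24.9 to 37.7 FPKM in males and 29.9 to 139 FPKM in females, among them Cd4 (-2.45, limma adjusted p = 0.616) and Cd3e (-2.20, limma adjusted p = 0.653). Of the 12 microglial markers 11 were higher in females, with sums of 3105 to 3784 FPKM in males and 3944 to 5701 FPKM in females. All genes tested leaned the same way, with 10594 of 18208 higher in females. The FPKM of a whole library also summed higher in females, to 606860 to 671370, against 417490 to 491810 in males. The marker counts and sums are to be read against this. The part of these cells in the values of Ube2c was not tested.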

How the data were processed

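RNA of sorted microglia was amplified with the Ovation RNA-Seq method and sequenced as paired ends, per the labels' protocols. Cufflinks 2.0.2, Bowtie2 2.0.0, TopHat2 2.0.4, CASAVA 1.8.2 and the build mm9 were used, per the submitters' processing notes, which give no roles or settings; strand handling: not given in the sources used here. The authors deposited FPKM per gene and library, so tests for counts were not used. An FPKM is relative to the other fragments of its library. Of 37447 genes, 426 without a value in at least 1 library were left out. Starts in mm9 are given from 1, that is 1 above those in the table, since 21410 genes have a table span longer by 1 than their annotated span.

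The 18208 genes that reached 1 FPKM in 2 or more libraries were tested as log2(FPKM + 1) with limma 3.58.1 in R 4.3.3, two-sided, with an intensity trend and Benjamini-Hochberg adjustment over all of them, at 0.05. This scale understates changes of low genes. The genotype fit had no covariate. The same fit was checked on simulated data. Relative depth came from the most frequent ratio of values between 0.01 and 0.3 FPKM in pairs of libraries. Precision is set by the spread between libraries.

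The members and lists were chosen with earlier results of these data known. Tests are given for the 6 most abundant members and the 6 with the smallest p of each class, for the 3 with the smallest p by sex, and for the 2 with the smallest p of each further list; values of other members were added. Alternatives were a pseudocount of 0.1, no filter, 2 other scalings, a sex term, a block by title date, a block by replicate number and omission of each library. P-values measure the spread between these libraries only. The values of 1 marker gene are not reported here.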

Additional observations from a re-analysis of the deposited data

Results flagged for a closer look

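Among the 4 FMC libraries, 1 stood apart from the other 3 by Dixon's ratio in 5 of 45 cases examined (42 genes and 3 class means). Chance flags about 1 in 20 if values are normal, and these cases are not independent. The share of all genes so flagged is not given here, so the count is not read as an excess. Lig1 stood at 37.7 FPKM in FMC 1 and between 7.82 and 7.86 FPKM in the other FMC libraries. Ttk stood at 12.4 FPKM in FMC 1 and at 0.499 FPKM or less in the others. Nusap1, a spindle-associated protein gene, stood at 1.05 FPKM in FMC 1, against 0.218 to 0.306 FPKM. The mean of the mitotic genes, which include Ttk and Nusap1, was 2.16 in FMC 1 and 1.53 to 1.62 in the others. Fen1 stood at 0.142 FPKM in FMC 3 and between 5.53 and 7.02 FPKM in the others.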

How the results depend on the processing

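Over all alternatives, leave-outs included, 0 members were called by genotype or, where run, by sex. Of 267 values of the 21 named members under the genotype alternatives, 0 passed and 20 lay on the other side of 0. With 1 library left out, log2 differences ran from -2.41 to 1.11 for Ccnb1, -1.85 to 0.51 for Cdk1, -0.0031 to 1.04 for Lig1, -0.075 to 0.83 for Mcm3, -1.19 to 0.13 for Mcm4, -0.46 to 0.55 for Mcm7, -0.32 to 0.42 for Mki67, -0.69 to 0.24 for Pcna, -0.84 to 0.30 for Rfc4 and -0.13 to 1.32 for Tk1. With the replicate block Bub1 was at -0.12, Ccnb1 at 0.24, Mcm3 at -0.15 and Tk1 at -0.034, and with the date block Lig1 was at -0.0013. A block without an FM library adds nothing to these differences. The replicate block thus rested on FMC 1 and FMC 2, leaving out FMC 4, where Bub1 peaked, and FMC 3, where Mcm3 and Tk1 peaked. The date block rested on FMC 2 and FMC 3, leaving out FMC 1, where Lig1 peaked. Its 2 pairs gave -0.51 and 0.51 for Lig1. The replicate numbers are shared by label only (deviations of FM 1 and FMC 1 correlated at 0.03 over genes, those of FM 2 and FMC 2 at -0.06). Genes called by genotype, 5 as reported, were 1 with a pseudocount of 0.1, 0 without a filter, 0 with sex as a covariate, 0 with the replicate block, 3 with the date block and 0 to 8 with 1 library left out (0 without FM 1, FM 2, FMC 2 or FMC 3; 8 without FMC 4). Genes called by sex were 0 to 4 with 1 library left out. The mitotic median was 0.021 without a filter, where all 24 mitotic genes entered, and -0.60 to 0.26 with 1 library left out; the replication median was 0.28 after quantile normalization and -0.13 to 0.22 with 1 library left out. With a pseudocount of 0.1, which widens low values by construction, the mitotic minus the replication mean was -0.82 and -1.02 in FM 1 and FM 2 and -1.21, -0.89 and -1.44 in FMC 2, FMC 3 and FMC 4, while FMC 1 was at -0.19, against -0.20 as reported, so its gap to the others grew. In fits without an FM library the spread of the lone one is taken from the FMC libraries. With 2 FM libraries, SEs of the named members ran from 0.48 to 1.39, which limits what a single gene can show.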
